A study of Homo sapiens with 9 samples.

Results

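The EGFR family of receptors and ligands was followed through its RNA in HaCaT, an immortal keratinocyte line from human skin. The 10 genes were taken from the deposited count table by symbol: the receptors EGFR, ERBB2 and ERBB3 and the ligands NRG1, HBEGF, TGFA, AREG, EREG, BTC and EPGN. They are 10 of 21170 features in the table and 10 of the 13713 that had enough counts to be tested. Poly(A) RNA was sequenced from 3 groups of 3 libraries: cells overexpressing an empty vector (Vector), wild-type FTO (FTO), and a mutant FTO whose demethylase activity is disrupted (mut-FTO). FTO removes methyl groups from adenosines in RNA. No other treatment is given in the labels, and the promoter of the construct, the culture conditions and whether a group was a single clone or a mixed population were found in no source used here, so that any trait of the cells in which a construct was placed and the construct itself cannot be told apart. Nothing says that a group's 3 libraries were grown separately, and p-values then measure the spread between these libraries, which may be technical.

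EGFR, ERBB2 and ERBB3 are receptor tyrosine kinases that work in pairs on the cell surface. HBEGF, TGFA, AREG, EREG, BTC and EPGN bind EGFR, and NRG1 binds ERBB3, whereas ERBB2 has no known ligand and serves as a partner for the others. The ligands are made as membrane-bound precursors, and proteases of the ADAM family release their active parts. In the epidermis keratinocytes make both ligands and receptors, and this signal is known for driving growth, migration and wound closure through RAS, ERK and other kinases.

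Libraries held 32222203 to 37846027 counts. FTO RNA stood at 18.4, 17.0 and 25.8 CPM (the count scaled to library size with TMM factors) in Vector replicates 1, 2 and 3, at 69.6, 77.1 and 62.6 in FTO and at 49.7, 82.7 and 64.3 in mut-FTO. It thus told Vector from the other groups but not these from each other, whose columns were matched to the labels by their letters alone. All 15 keratinocyte markers were above 1 CPM in every group. Vector replicate 3 stood apart, with 14.97% of its counts from mitochondrially encoded genes against 4.16% and 4.20% in Vector replicates 1 and 2. The FTO libraries had 3.80% to 4.32% and the mut-FTO libraries 5.52% to 7.45%, so that all mut-FTO libraries lay above all FTO libraries. Loci assembled without a gene name took 2.498% and 3.17% in Vector replicate 3 and mut-FTO replicate 2, against 0.689% to 0.874% elsewhere.

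In mut-FTO 3 ligand genes fell against Vector, NRG1, HBEGF and TGFA, where 7.78% of all tested genes passed (4.51% lower, 3.27% higher). These 3 also differed between the FTO constructs, with the higher level in FTO, where 2.33% of genes passed (1.2% higher, 1.13% lower). This difference between the constructs was called in all 19 alternative fits for NRG1, in 8 for HBEGF and in 10 for TGFA. Of the 10 members 0 passed in FTO against Vector, where 0.744% of genes did (0.306% higher, 0.438% lower). The promoters of 2 of these ligands are shown beside those of 3 ligand genes that stand next to each other, because they differ in the elements in front of the start. The elements marked were chosen after the promoters had been seen. BTC, the next gene of that run, has no exact match to the sequences searched and is not shown. The windows shown are from RefSeq on GRCh38.p14, written 5′ to 3′ on the gene's own strand, with 250 bases before the start and 50 after it. They lie at chr5:140346554-140346853 on the minus strand (HBEGF), chr2:70553777-70554076 on the minus strand (the upstream start of TGFA), and on the plus strand at chr4:74444886-74445185 (AREG), chr4:74364895-74365194 (EREG) and chr4:74308220-74308519 (EPGN). Capitals mark a TATA box or a CRE, the site known for binding CREB.
HBEGF: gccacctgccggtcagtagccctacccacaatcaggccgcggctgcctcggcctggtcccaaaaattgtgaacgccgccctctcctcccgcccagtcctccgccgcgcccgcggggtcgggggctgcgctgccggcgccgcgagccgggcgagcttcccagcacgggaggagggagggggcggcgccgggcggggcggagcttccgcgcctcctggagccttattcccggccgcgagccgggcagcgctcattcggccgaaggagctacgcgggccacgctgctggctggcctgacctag
TGFA: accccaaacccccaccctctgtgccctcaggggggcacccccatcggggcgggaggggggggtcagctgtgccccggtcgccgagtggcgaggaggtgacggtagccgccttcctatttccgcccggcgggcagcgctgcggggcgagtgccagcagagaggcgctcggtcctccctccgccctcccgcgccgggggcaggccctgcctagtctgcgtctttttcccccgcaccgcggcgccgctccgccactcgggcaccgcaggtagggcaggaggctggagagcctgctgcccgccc
AREG: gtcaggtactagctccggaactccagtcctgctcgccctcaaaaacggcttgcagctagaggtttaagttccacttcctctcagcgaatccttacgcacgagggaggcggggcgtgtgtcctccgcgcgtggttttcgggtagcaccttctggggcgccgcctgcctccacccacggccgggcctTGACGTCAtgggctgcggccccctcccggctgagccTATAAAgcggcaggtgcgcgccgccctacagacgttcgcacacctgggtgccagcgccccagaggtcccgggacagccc
EREG: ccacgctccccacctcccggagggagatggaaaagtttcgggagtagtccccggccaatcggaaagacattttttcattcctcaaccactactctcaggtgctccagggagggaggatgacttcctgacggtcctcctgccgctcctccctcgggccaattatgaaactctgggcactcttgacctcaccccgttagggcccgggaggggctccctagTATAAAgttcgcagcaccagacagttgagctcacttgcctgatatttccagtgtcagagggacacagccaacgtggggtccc
EPGN: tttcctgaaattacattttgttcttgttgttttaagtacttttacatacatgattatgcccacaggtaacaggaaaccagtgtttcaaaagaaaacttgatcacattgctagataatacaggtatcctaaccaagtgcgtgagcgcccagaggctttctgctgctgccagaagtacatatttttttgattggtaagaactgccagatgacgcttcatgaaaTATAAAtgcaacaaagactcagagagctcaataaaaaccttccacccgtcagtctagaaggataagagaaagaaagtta

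The AP-1 motif TGANTCA was searched on both strands. The CRE was searched as TGACGTCA, also on both strands. The TATA box was searched as TATAAA on the gene's strand, and none of the matches overlapped another. AREG, EREG and EPGN each had TATAAA, starting 29, 32 and 29 bases before the start, as did 7.33% of 35116 windows of the same length anywhere in the window. The window of a downstream start of EGFR had it too, 146 and 36 bases before that start. AREG also had TGACGTCA, 65 bases before its start, a sequence found in 1.85% of windows. HBEGF and both starts of TGFA had no exact match to any of the 3, and neither did BTC. The BTC window does hold ATAAATA before its start, which a search for TATAAA does not count. TGANTCA stood in ERBB2 and, at 2 places, in the same downstream window of EGFR, against 7.71% of windows. HBEGF, the upstream start of TGFA and the upstream start of EGFR were rich in G and C, at 75%, 75.3% and 75.3% against a median of 58.7%. Windows were used for 8 of the 10 members. None was found for ERBB3, and no window on chromosome 8, where NRG1 lies, was used. A match to these letters is a description of the sequence and not a measured site.

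NRG1, the neuregulin that binds ERBB3, was the member with the lowest p. It stood at 176, 165 and 183 CPM in Vector replicates 1, 2 and 3, at 168, 171 and 153 in FTO, and at 80.7, 80.1 and 82.1 in mut-FTO. The mut-FTO libraries lay close together and far below all others, while the FTO and Vector libraries overlapped. NRG1 fell 2.16-fold in mut-FTO against Vector (log2 −1.11, SE 0.14; adjusted p = 0.000324, edgeR quasi-likelihood test). Its FTO level exceeded that of mut-FTO 2.03-fold (log2 1.02, SE 0.14; adjusted p = 0.00229). FTO differed from Vector by −0.089 on the log2 scale, with a 95% interval of −0.38 to 0.20 (adjusted p = 0.828). Both calls held in all 19 alternative fits.

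HBEGF, a ligand of EGFR that also binds heparin, was high in Vector, intermediate in FTO and low in mut-FTO. Its values were 294, 342 and 328 CPM for Vector, 236, 253 and 226 for FTO libraries and 132, 177 and 147 for the mut-FTO group. The 3 groups did not overlap. HBEGF fell 2.12-fold in mut-FTO against Vector (log2 −1.08, SE 0.16; adjusted p = 0.00100, edgeR), a call that held in all 19 alternatives. Its log2 difference between FTO and Vector was −0.43 (95% interval −0.76 to −0.093; adjusted p = 0.299), which did not pass, although with Vector replicate 3 and mut-FTO replicate 2 both left out the same difference of −0.43 did (adjusted p = 0.0169). HBEGF in FTO exceeded the mut-FTO level 1.57-fold (log2 0.65, SE 0.16; adjusted p = 0.0495). That call held in 8 of 19 alternatives and was lost when any FTO or mut-FTO library or Vector replicate 2 was left out. The log2 difference was 0.56 to 0.77 over the leave-one-out fits, with adjusted p up to 0.229.

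TGFA, transforming growth factor alpha and a ligand of EGFR, stood at 96.6, 99.2 and 104 CPM in Vector and at 94.6, 92.1 and 91.9 in FTO. In mut-FTO it was at 65.5, 46.1 and 62.2, with the lowest value in replicate 2. The mut-FTO libraries lay below all others. TGFA fell 1.73-fold in mut-FTO against Vector (log2 −0.79, SE 0.16; adjusted p = 0.00899, edgeR) and with any 1 library left out, but not in a fit of the 6 libraries compared (adjusted p = 0.0506). TGFA in FTO exceeded the mut-FTO level 1.60-fold (log2 0.68, SE 0.16; adjusted p = 0.0464), which held in 10 of 19 alternatives and was lost without Vector replicate 2 or any FTO or mut-FTO library. Over the leave-one-out fits the log2 difference was 0.53 to 0.78, with adjusted p up to 0.195. FTO against Vector gave −0.11 (95% interval −0.45 to 0.24; adjusted p = 0.823).

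**Figure D1:**
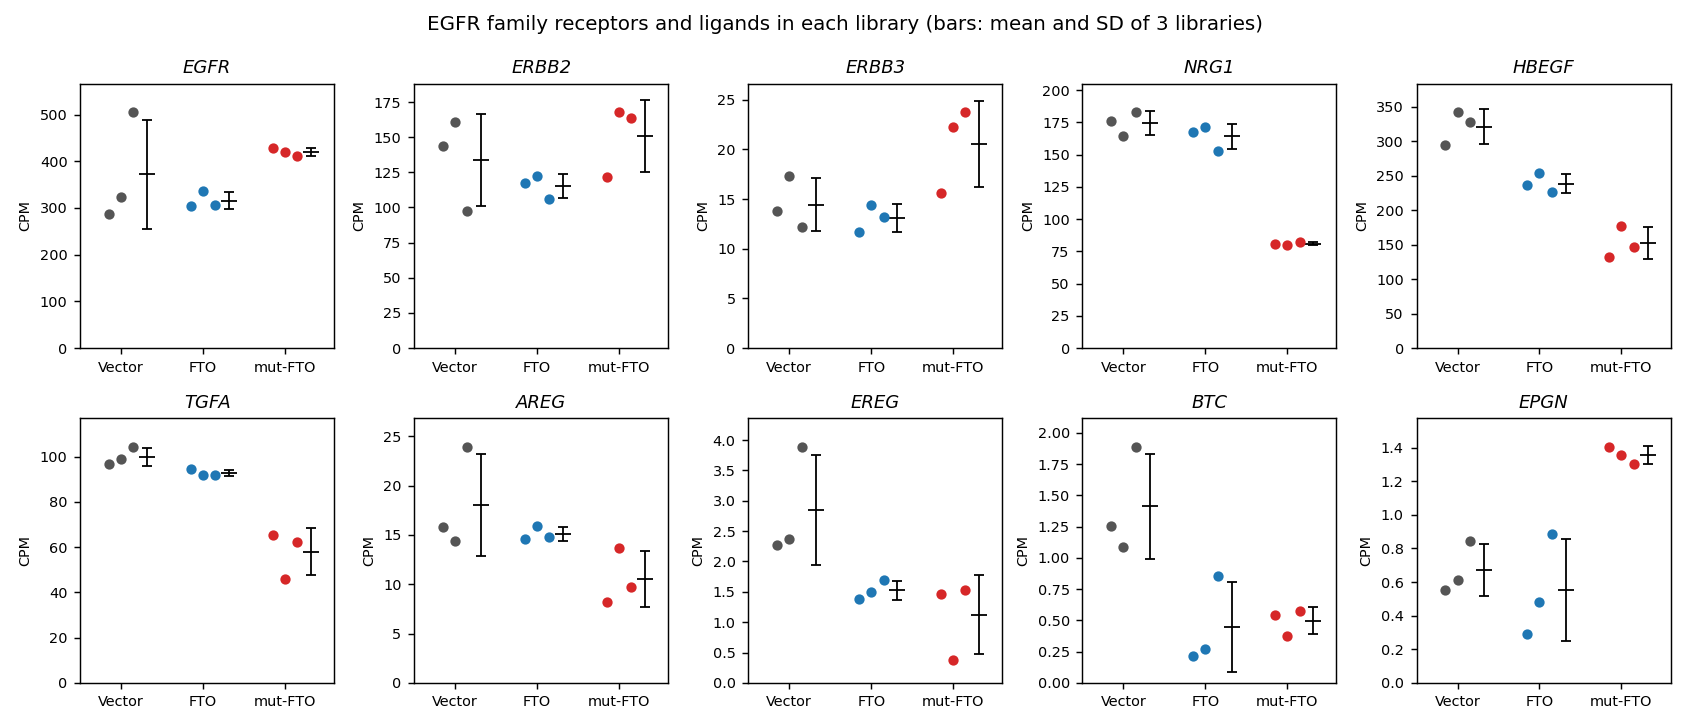
CPM of each of the 10 genes on the vertical axis, 1 point per library in the groups Vector, FTO and mut-FTO on the horizontal axis, with the mean and SD of 3 libraries beside the points. NRG1 in mut-FTO lies between 80.1 and 82.1 CPM, below every other library, whereas EGFR in Vector spreads from 287 to 505 CPM.

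AREG, EREG, BTC and EPGN are neighbours on chromosome 4, in the order EPGN, EREG, AREG and BTC with no other protein-coding RefSeq gene between them. None of the 4 passed the threshold in any comparison by edgeR. AREG, amphiregulin, a ligand of EGFR that keratinocytes make in culture, stood at 15.8, 14.4 and 23.9 CPM for Vector, 14.6, 15.9 and 14.8 for FTO libraries and 8.19, 13.6 and 9.77 for the mut-FTO group. Its mut-FTO libraries lay below all others, with replicate 2 the nearest to them. The log2 difference of AREG between mut-FTO and Vector was −0.78 (SE 0.24; adjusted p = 0.0733, edgeR). It passed with library size alone (−0.86; adjusted p = 0.0387), by DESeq2 (−0.79; 0.0236), without mut-FTO replicate 2 (−1.002; 0.0493) and without that library and Vector replicate 3 (−0.78; 0.00334), and it was −0.53 without Vector replicate 3 alone (0.0737).

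EREG, epiregulin, which binds EGFR and the fourth receptor ERBB4, was low, at 2.28, 2.38 and 3.89 CPM for Vector, 1.38, 1.5 and 1.69 for FTO libraries and 1.46, 0.373 and 1.53 for the mut-FTO group. Vector lay above both other groups, which overlapped. The value in mut-FTO replicate 2 rests on 11 counts, against 54 and 53 in the other libraries of that group. The log2 difference was −1.33 in mut-FTO against Vector (SE 0.45; adjusted p = 0.0968, edgeR; 0.0345 by DESeq2), and −0.66 without mut-FTO replicate 2 and Vector replicate 3 (0.251). In FTO against Vector it was −0.90 (SE 0.44; adjusted p = 0.443). BTC, betacellulin, which also binds both of these receptors, was nearer the limit of detection, with 43, 39 and 67 counts for Vector, then 8, 10 and 30 for FTO and 20, 11 and 20 for mut-FTO. Vector lay above both other groups here too, at 1.09 to 1.89 CPM against 0.213 to 0.858 in FTO and 0.373 to 0.578 in mut-FTO. Its log2 difference against Vector was −1.66 for FTO (SE 0.57; adjusted p = 0.281, edgeR), and −2.57 without FTO replicate 3 (adjusted p = 0.175). For mut-FTO it was −1.49 (SE 0.57; adjusted p = 0.145).

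EPGN, epigen, a further ligand of EGFR, was the ligand whose value was higher in mut-FTO than in Vector. It stood at 0.555, 0.615 and 0.846 CPM for Vector, 0.292, 0.483 and 0.887 for FTO libraries and 1.41, 1.36 and 1.30 for the mut-FTO group. The mut-FTO libraries were close together and above all others, on 40 to 52 counts each against 11 to 31. The log2 difference was 1.01 in mut-FTO against Vector (SE 0.47; adjusted p = 0.248, edgeR) and −1.29 in FTO against mut-FTO (SE 0.48; adjusted p = 0.229), and neither passed. The direction thus differed between EPGN and its neighbours EREG and AREG, without a test of that difference.

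Among the receptors, EGFR was the member with the most counts, and its Vector libraries were far apart. It stood at 287, 324 and 505 CPM in Vector replicates 1, 2 and 3, at 305, 336 and 306 in FTO, and at 429, 419 and 411 in mut-FTO. Vector replicate 3, the library rich in mitochondrial counts, was the highest of all 9, while FTO and mut-FTO did not overlap. With it the log2 difference of EGFR between mut-FTO and Vector was 0.17 (SE 0.20; 95% interval −0.25 to 0.60; adjusted p = 0.668, edgeR). Without it the difference was 0.45 (SE 0.11) and passed (adjusted p = 0.0127). FTO against mut-FTO gave −0.41 (SE 0.20; adjusted p = 0.386), and −0.43 (SE 0.10; adjusted p = 0.0125) without Vector replicate 3, a library of neither group, which enters through the shared spread and the scaling. A fit of those 6 libraries alone gave −0.41 (adjusted p = 0.0230). For FTO against Vector the value was −0.24 (adjusted p = 0.670), which became 0.026 once that library was left out (adjusted p = 0.931).

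ERBB2 stood at 144, 161 and 97.5 CPM for Vector, 118, 123 and 106 for FTO libraries and 121, 168 and 164 for the mut-FTO group. Here Vector replicate 3 was the lowest library, the opposite of EGFR, and every pair of groups overlapped. The log2 differences were −0.21 in FTO against Vector (SE 0.20; adjusted p = 0.698, edgeR) and 0.17 in mut-FTO against Vector (SE 0.20; adjusted p = 0.675). Without Vector replicate 3 and mut-FTO replicate 2 they were −0.41 (adjusted p = 0.0423) and −0.12 (0.584). Leaving out Vector replicate 3 alone gave −0.42 (adjusted p = 0.108) and −0.022 (0.944). PGAP3 and MIEN1 lie on the opposite strand and overlap ERBB2 in GENCODE 29. They held 6648 and 24605 counts over the 9 libraries against 41921 for ERBB2, and as no strand setting is stated, reads in the overlaps cannot be told apart.

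ERBB3, whose own kinase is impaired and which signals through its partner, was lower, at 13.8, 17.4 and 12.2 CPM for Vector, 11.7, 14.4 and 13.2 for FTO libraries and 15.6, 22.3 and 23.8 for the mut-FTO group. The mut-FTO libraries lay above all FTO libraries and overlapped Vector. ERBB3 differed by 0.51 between mut-FTO and Vector (SE 0.21; 95% interval 0.047 to 0.97; adjusted p = 0.187, edgeR). Between FTO and mut-FTO it differed by −0.65 (SE 0.21; adjusted p = 0.160), and by −0.66 without Vector replicate 3 (SE 0.17; adjusted p = 0.0185).

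**Figure D2:**
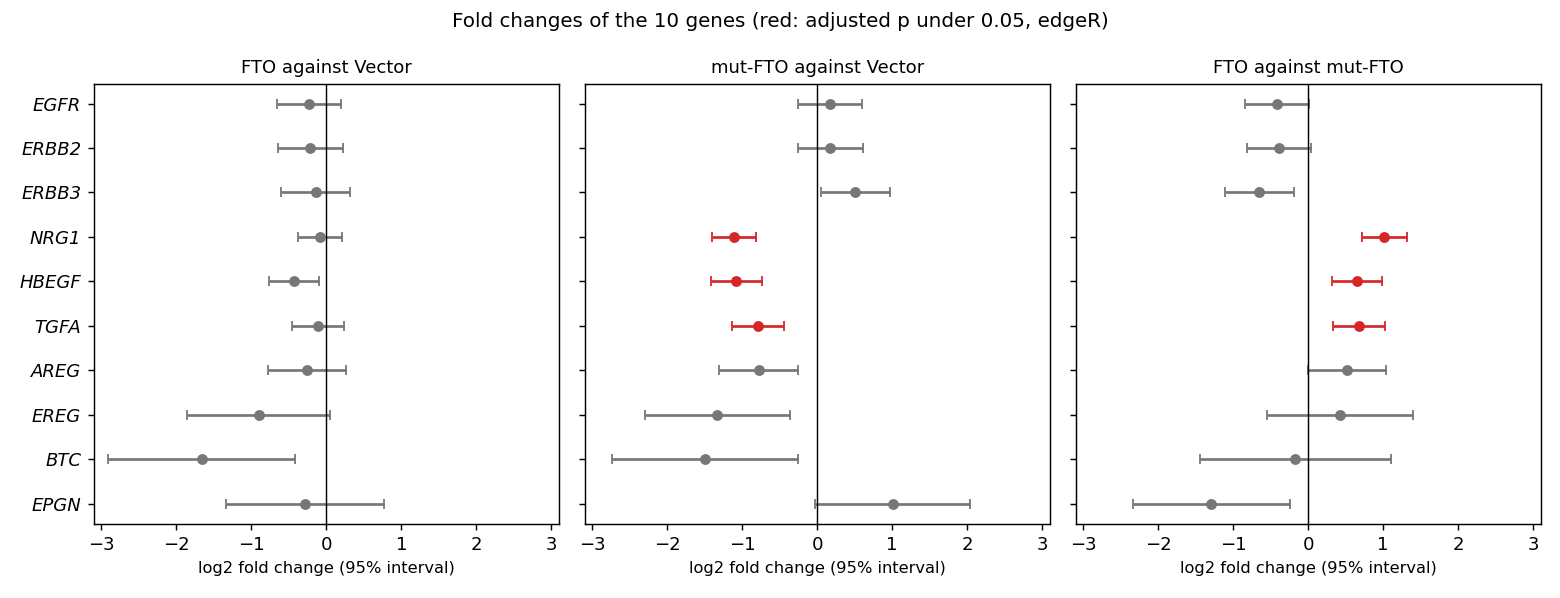
Log2 fold change on the horizontal axis with its 95% interval for each gene on the vertical axis, in 3 panels, 1 per comparison, with genes at an adjusted p under 0.05 in red. NRG1, HBEGF and TGFA are called in mut-FTO against Vector (−1.11, −1.08 and −0.79) and in FTO against mut-FTO (1.02, 0.65 and 0.68), and no gene is called in FTO against Vector.

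Counts of members past the threshold were the same by edgeR and limma-voom: 0 in FTO against Vector, 3 lower and 0 higher in mut-FTO against Vector, and 3 higher and 0 lower in FTO against mut-FTO. DESeq2 called 0, then 5 lower and 0 higher, AREG and EREG being added, then 3 higher and 0 lower. DESeq2 also called more of all genes. In mut-FTO against Vector it called 708 higher and 972 lower, where edgeR called 449 and 618. For FTO against Vector the DESeq2 counts were 127 and 237 (42 and 60 by edgeR), and for FTO against mut-FTO 370 and 381 (164 and 155). At an unadjusted p below 0.05 by edgeR, FTO against Vector had 0 members higher and 2 lower, where 4.94% of all genes were higher and 6.95% lower. For mut-FTO against Vector it was 1 higher and 6 lower, beside 10.1% and 11% of all genes. For FTO against mut-FTO it was 3 higher and 2 lower, beside 6.69% and 7.3% of all genes. These comparisons share libraries, so that the calls against mut-FTO are not independent of each other.

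All 10 members had a negative log2 difference in FTO against Vector, where the signs of EGFR, ERBB3 and EPGN changed in some alternatives. In mut-FTO against Vector 6 of the 7 ligands had a negative difference. Libraries of mut-FTO lay below all Vector libraries for those 6, where 11.8% of all tested genes did so, and libraries of FTO lay below all Vector libraries for 4 of 7 (HBEGF, TGFA, EREG and BTC), against 10.9% of all genes. No member lay above all Vector libraries in FTO (10.1% of genes), and EPGN did so in mut-FTO (12.2%). Between FTO and mut-FTO, 4 members lay wholly higher in FTO (14.8% of genes) and 3 wholly lower (14.2%). The median over the ligands was −0.28 in FTO and −1.08 in mut-FTO, and over the 3 receptors −0.21 and 0.17. The median of all 13713 genes was −0.0020 and −0.0012.

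Levels between genes were compared per kilobase of the longest protein-coding transcript in GENCODE 29. In Vector HBEGF was the highest, at 135 ± 10.4 CPM per kilobase (SD, n = 3), followed by EGFR at 37.9 ± 11.9, NRG1 at 29.4 ± 1.57, ERBB2 at 27.9 ± 6.81 and TGFA at 23.2 ± 0.924. EGFR, NRG1 and ERBB2 did not differ beyond their spread, nor did ERBB2 and TGFA. AREG followed at 14.6 ± 4.15 and ERBB3 at 2.44 ± 0.447, and EREG, EPGN and BTC were at 0.617 ± 0.196, 0.562 ± 0.128 and 0.502 ± 0.150, which did not differ beyond their spread. In mut-FTO HBEGF remained first at 63.6 ± 9.69, EGFR was second at 42.7 ± 0.926, ERBB2 next at 31.5 ± 5.37, and NRG1 and TGFA did not differ beyond their spread at 13.65 ± 0.169 and 13.4 ± 2.40. The order rests on the length used: by the median length of a gene's protein-coding transcripts EGFR, and not HBEGF, was first in mut-FTO, at 125 against 63.6 CPM per kilobase.

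The genes whose pattern over the 9 libraries was most like that of NRG1 were PLIN2, TPM1 and STX3. Likeness was the root mean square difference of log2 CPM after centring each gene, 0.095, 0.11 and 0.13, against a standard deviation of 0.54 for NRG1 itself. PLIN2 encodes a coat protein of lipid droplets, TPM1 a tropomyosin of actin filaments, and STX3 a syntaxin of membrane fusion. Their mean levels were 27.5, 125 and 69.2 CPM in Vector and 11.9, 59.3 and 33.9 CPM in mut-FTO, a description only, since the genes were chosen for sharing the pattern of NRG1. The nearest to EGFR were CHD2, a chromatin remodeller, TNIP3, a relative of the NF-kB inhibitor TNIP1, and MFSD6, at 0.066, 0.071 and 0.082 against a standard deviation of 0.28. The wide spread of their Vector libraries, with SDs of 12.8, 15.2 and 15.7 CPM on means of 47.0, 42.8 and 43.8, is likewise part of what chose them.

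The remaining receptor and ligand genes of the family had few counts or none. ERBB4, the receptor that several of these ligands share, had 2 counts for Vector, 25 for FTO libraries and 25 for the mut-FTO group over 3 libraries each and was not tested. EGF had 0 counts in every library, for which a limit was set at 3 expected counts per group, or 0.0292 CPM in Vector. NRG2 had 2, 8 and 12 counts. NRG3 had 38, 25 and 4 counts, with a log2 difference of −3.05 in mut-FTO against Vector (SE 1.22; adjusted p = 0.167, edgeR), and NRG4 had 171, 143 and 202 counts and 0.32 (SE 0.36; adjusted p = 0.667). The limit for EGF covers counting error only, as reads are not independent molecules.

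Of 13 genes that process or release ligand precursors, 1 rose and 3 fell in mut-FTO against Vector, where 3.27% of all genes rose and 4.51% fell. In FTO 0 rose and 1 fell, beside 0.306% and 0.438% of all genes. The list's median log2 difference was 0.023 in mut-FTO and 0.016 in FTO, near that of all genes. ADAM19, a metalloprotease that cuts neuregulins, stood at 25.4, 21.1 and 21.0 CPM for Vector, 12.6, 10.8 and 11.02 for FTO libraries and 3.78, 5.09 and 3.93 for the mut-FTO group. The 3 groups stood apart in steps. ADAM19 fell 5.28-fold in mut-FTO (log2 −2.40, SE 0.20; adjusted p = 2.02e-05, edgeR) in all 19 alternatives. It fell 1.96-fold in FTO against Vector (log2 −0.97, SE 0.19; adjusted p = 0.0381), a call lost with any FTO library, Vector replicate 1 or 2, or mut-FTO replicate 1 or 3 left out, at adjusted p up to 0.229. The FTO level exceeded that of mut-FTO 2.69-fold (adjusted p = 0.00275).

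TIMP3, an inhibitor of ADAM17 and of matrix metalloproteinases, was at 18.5, 20.6 and 21.2 CPM for Vector, 20.3, 20.9 and 18.9 for FTO libraries and 11.03, 11.7 and 11.8 for the mut-FTO group, the same split as NRG1. It fell 1.75-fold in mut-FTO against Vector (log2 −0.80, SE 0.16; adjusted p = 0.00854, edgeR; 0.0529 in a fit of the 6 libraries compared). RHBDL2, a rhomboid protease of the plasma membrane, rose 1.69-fold in mut-FTO, from 18.8, 21.6 and 18.8 CPM to 34.0, 33.2 and 32.5 (log2 0.75, SE 0.16; adjusted p = 0.0111; 0.0650 in the same smaller fit). The FTO libraries lay between these groups, at 25.5, 27.1 and 31.0 CPM. RHBDL2 did not pass in FTO against Vector (log2 0.50; adjusted p = 0.238, edgeR) or in FTO against mut-FTO (−0.26; 0.524). ADAM12, a further metalloprotease, was at 0.895 to 1.55 CPM in Vector and at 0 to 0.189 in mut-FTO (log2 −3.19, SE 0.90; adjusted p = 0.0493), a call that held in 8 of 19 alternatives. ADAM17, the main protease known to release ligands of EGFR, differed from Vector by 0.023 in mut-FTO (SE 0.21; adjusted p = 0.968, edgeR). Its difference in FTO was 0.016 (SE 0.21; adjusted p = 0.985).

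Genes that act between receptor and nucleus are read beside the share of all tested genes that passed, 7.78% in mut-FTO against Vector and 0.744% in FTO against Vector. At an unadjusted p below 0.05 by edgeR, 10.1% of all genes were higher and 11% lower in mut-FTO. In FTO it was 4.94% and 6.95%. Of 17 adaptors and kinases of the RAS and ERK cascade, 0 rose and 1 fell in mut-FTO against Vector by edgeR, DESeq2 and limma-voom alike, with a median of 0.12 by edgeR, and in FTO 0 rose and 0 fell by all 3 tools, with 0 higher and 1 lower at an unadjusted p below 0.05. The gene that fell was ARAF, a kinase of the RAF family, from 85.7, 82.2 and 83.3 CPM in Vector to 48.2, 62.1 and 53.6 in mut-FTO, with FTO at 69.2, 68.3 and 61.7, below Vector and overlapping mut-FTO. Its log2 change was −0.62 (SE 0.15; adjusted p = 0.0242, edgeR), called in 12 of 19 alternatives. NRAS and MAP2K1, the other genes of lowest p, differed by −0.44 (adjusted p = 0.230) and −0.49 (adjusted p = 0.169), and MAP2K1 passed without Vector replicate 3 (−0.67; 0.00258). Of 15 genes of the PI3K, phospholipase, SRC and STAT branches, 0 passed in either comparison with Vector by edgeR or limma-voom, while DESeq2 called 1 higher in mut-FTO and 0 in FTO, with 1 higher and 1 lower at an unadjusted p below 0.05 in mut-FTO and 0 and 1 in FTO. STAT5A was lower in FTO than in mut-FTO (2.43 ± 0.545 against 8.67 ± 3.03 CPM; log2 −1.83, SE 0.32; adjusted p = 0.0102, edgeR). This call was lost without any 1 FTO library or mut-FTO replicate 2, at adjusted p up to 0.0661. SRC and PIK3R2 differed from Vector by −0.48 (adjusted p = 0.123) and −0.10 (adjusted p = 0.789) in mut-FTO, and without Vector replicate 3 SRC passed (−0.66; 0.000999). In FTO against Vector SRC differed by −0.31 (adjusted p = 0.505, edgeR), and it passed there too without Vector replicate 3 (−0.50; 0.0269).

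Of 23 genes that restrain or degrade the receptors, 0 rose and 1 fell in mut-FTO against Vector, near the share of all genes (3.27% and 4.51%), with a median of −0.046 and with 3 higher and 4 lower at an unadjusted p below 0.05. In FTO 0 rose and 0 fell, beside 0.306% and 0.438% of all genes, with a median of −0.062. At an unadjusted p below 0.05, 1 was higher and 2 were lower in FTO. The shares of all genes at that level were 4.94% higher and 6.95% lower in FTO, and 10.1% and 11% in mut-FTO. SH3KBP1, an adaptor that binds CBL when receptors are taken up, stood at 10.4, 9.37 and 18.9 CPM for Vector, 5.79, 4.56 and 4.38 for FTO libraries and 1.84, 1.49 and 1.10 for the mut-FTO group. The 3 groups did not overlap. SH3KBP1 fell 8.69-fold in mut-FTO (log2 −3.12, SE 0.32; adjusted p = 9.95e-05, edgeR) in all 19 alternatives. In FTO against Vector it gave −1.39 (SE 0.30; adjusted p = 0.0568), and −1.03 without Vector replicate 3, which passed (adjusted p = 0.0306). ERRFI1, a feedback inhibitor that binds the EGFR kinase, was at 61.2, 71.4 and 84.4 CPM for Vector, 102, 123 and 106 for FTO libraries and 80.0, 58.7 and 64.4 for the mut-FTO group, so that FTO lay above both other groups. Its log2 difference was 0.61 in FTO against Vector (SE 0.18; adjusted p = 0.194) and 0.70 in FTO against mut-FTO (SE 0.18; adjusted p = 0.0635). Neither passed, but both did without Vector replicate 3, at 0.71 (adjusted p = 0.0142) and 0.69 (0.00310). PTPRK, a receptor phosphatase, differed by −0.47 in mut-FTO (adjusted p = 0.137).

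**Figure D3:**
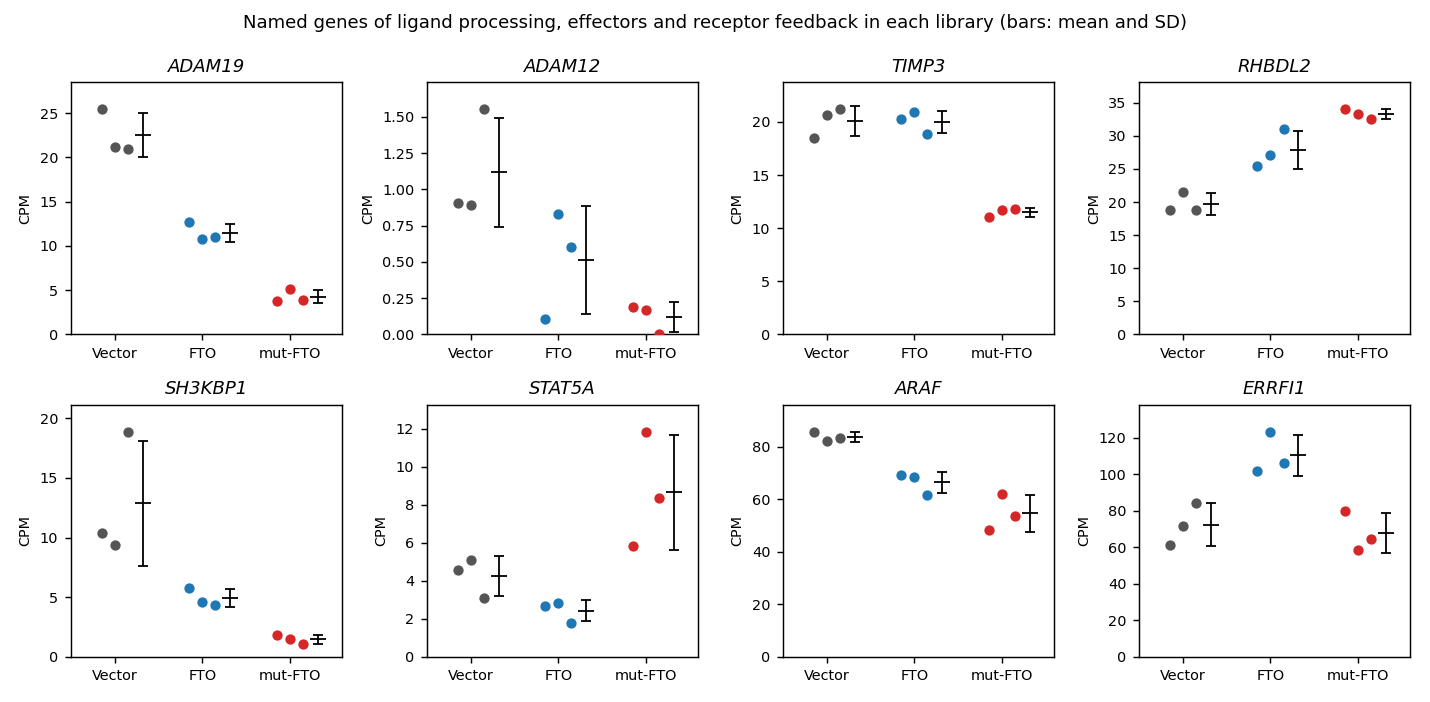
CPM of 8 genes of ligand processing, receptor effectors and receptor feedback on the vertical axis, 1 point per library in the groups on the horizontal axis, with the mean and SD of 3 libraries beside the points. ADAM19 steps down from 21.0 to 25.4 CPM in Vector over 10.8 to 12.6 in FTO to 3.78 to 5.09 in mut-FTO, and TIMP3 is lower in mut-FTO alone (11.03 to 11.8 CPM).

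The last list holds genes whose RNA is raised by growth factor signalling through ERK. Like the other lists it was chosen with earlier results of these data known, so that its counts are a description. Of 24 tested, 12 fell, 1 rose and 11 did not pass in mut-FTO against Vector, where 4.51% and 3.27% of all genes did so, and the list's median log2 difference was −0.98 against −0.0012 for all genes. The count that fell was 10 to 14 in the 19 alternatives, 13 without Vector replicate 3 and 14 without that library and mut-FTO replicate 2. In FTO against Vector 0 of 24 rose and 0 fell, beside 0.306% and 0.438% of all genes, and the median was −0.21. DESeq2 called 2 lower there and limma-voom 0. Without Vector replicate 3, 2 fell, and 4 fell without Vector replicate 3 and mut-FTO replicate 2. At an unadjusted p below 0.05 by edgeR, 0 were higher and 10 lower in FTO against Vector, beside 4.94% and 6.95% of all genes. In FTO against mut-FTO 7 were higher and 0 lower, beside 1.2% and 1.13% of all genes. With an FTO or mut-FTO library left out 3 to 5 were higher, and without Vector replicate 3 it was 12.

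ETV5, an ETS transcription factor induced by ERK, stood at 11.4, 9.42 and 11.03 CPM for Vector, 6.59, 6.28 and 5.12 for FTO libraries and 1.03, 1.15 and 2.11 for the mut-FTO group, with no overlap between groups. It fell 7.40-fold in mut-FTO against Vector (log2 −2.89, SE 0.29; adjusted p = 8.40e-05, edgeR). Its relative ETV4 fell 3.08-fold, from 39.9, 37.1 and 26.6 CPM to 11.4, 11.985 and 10.2 (adjusted p = 0.000237). The FTO libraries had ETV4 at 22.1, 23.9 and 20.9 CPM, below all Vector libraries. ETV4 did not pass in FTO against Vector (log2 −0.63; adjusted p = 0.203, edgeR). It did by DESeq2 (−0.65; 0.0473) and without Vector replicate 3 (−0.81; 0.00355, edgeR). PTGS2, the inducible cyclooxygenase, stood at 200, 276 and 334 CPM for Vector, 242, 273 and 261 for FTO libraries and 98.9, 72.3 and 93.2 for the mut-FTO group, where it fell 3.06-fold (adjusted p = 0.000338). The 3 falls in mut-FTO against Vector held in all 19 alternatives. The other genes that fell were PHLDA1, FOSL1, FOSB, IER3, CCND1, DUSP4, DUSP5, DUSP6 and SPRED1, named here after their values were seen. SPRED1 and the DUSP genes encode inhibitors of the same cascade, and CCND1 encodes cyclin D1. SPRY2, a feedback inhibitor of growth factor receptors, went the other way and rose 1.83-fold (log2 0.87, SE 0.23; adjusted p = 0.0333). The list had 1 gene higher in 9 of 19 alternatives and 0 in the others, among them each fit without Vector replicate 1 or an FTO or mut-FTO library.

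**Figure D4:**
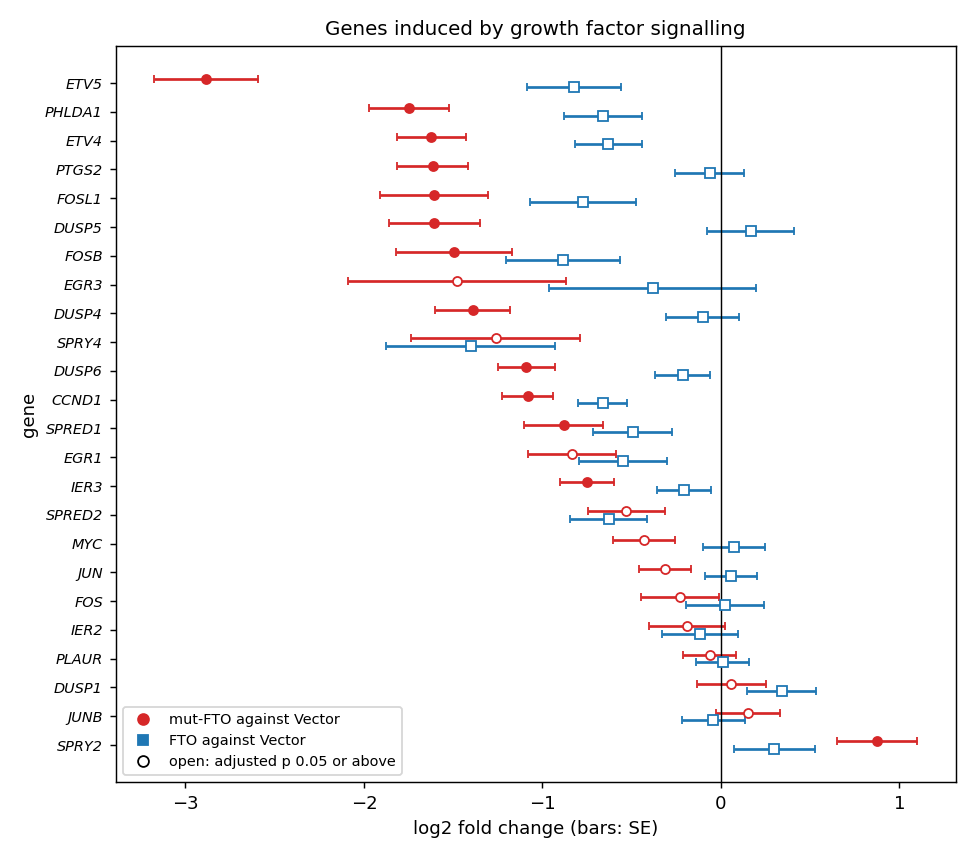
Log2 fold change on the horizontal axis with its SE for 24 growth-factor induced genes on the vertical axis, in mut-FTO against Vector (circles) and FTO against Vector (squares), filled where the adjusted p is under 0.05. In mut-FTO 12 filled circles lie left of 0, from ETV5 at −2.89 to IER3 at −0.75, and no square is filled; both series share the Vector libraries.

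Other features of the libraries moved with these genes. Summed over 15 markers, keratinocyte genes stood at 21865 to 26168 CPM in Vector, 23956 to 25002 in FTO and 27359 to 35454 in mut-FTO, and KRT14 and KRT5, keratins of the basal layer, rose in mut-FTO (log2 0.91 and 0.69; adjusted p = 0.00876 and 0.0468, edgeR). LAMA3, a laminin chain of the epidermal basement membrane, fell (−1.33; adjusted p = 0.000281). None of the other keratinocyte markers passed in mut-FTO against Vector, and their values went both ways. KRT14 averaged 4889 CPM in Vector and 9213 in mut-FTO, and KRT5 3200 and 5144, so that these keratins weigh heavily in the sum. Of 11 leukocyte markers, with PTPRC at 0 in Vector and FTO and CD4, MS4A1 and TYROBP at 0 in every group, 1 averaged over 1 CPM, and their sum was 11.7 to 16.4 CPM in Vector, 16.0 to 17.8 in FTO and 25.7 to 31.0 in mut-FTO. CD14 rose in mut-FTO (log2 1.01; adjusted p = 0.00600). Fibroblast markers summed to 8.77 to 14.0 CPM in all libraries with THY1 at 0, melanocyte markers to 0.935 to 2.65 with TYR and DCT at 0, and endothelial markers to 0 to 1.99 with PECAM1 and CLDN5 at 0. The part of these and of the mitochondrial share in the values above was not tested. In bulk libraries, fewer cells of a kind and less RNA per cell cannot be told apart.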

How the data were processed

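Poly(A) RNA of 9 HaCaT libraries was analysed from the whole-number counts per gene, not normalized, that the authors deposited. HISAT2 and StringTie are named, without versions, in the submitters' processing notes, which also name mm10, a mouse build, although cells and symbols are human. The counting program, strand setting and annotation were found in no source used here. Columns were matched to groups by their letters (those without F to Vector, with F to FTO, with a letter before F to mut-FTO) and to replicates by number. All columns of values were used, and each 2 libraries of a group differed by more than counting noise.

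Testing of the counts used edgeR 4.0.16 (R 4.3.3): filterByExpr by group (minimum count 10, total 15), TMM factors, 1 model of 9 libraries with a term per group, robust quasi-likelihood fits, and Benjamini-Hochberg adjustment over 13713 genes, with adjusted p below 0.05 called. CPM values use TMM-scaled library sizes, and log2 CPM a prior count of 2. SEs were derived from the fold change and F. The pipeline was tested on simulated data. Alternatives were RLE factors, library size alone, DESeq2 1.42.0, limma-voom (limma 3.58.1), other filters, smaller fits, a replicate block, and libraries left out. The members, gene lists and alternatives were chosen with earlier results of these data known, except the CRE and TATA motifs, which were chosen after the promoters had been seen. All members are named, and of each list the 3 genes of lowest p, with every gene called where a list has 5 or fewer. ADAM17, SPRY2 and the markers with values were added after their values were seen.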

Additional observations from a re-analysis of the deposited data

How the results depend on the processing

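Of 30 values for members in the 3 comparisons, 19 kept their call and 25 their sign in all alternatives run for them, and no called value changed sign. NRG1 (in both comparisons with mut-FTO) and HBEGF (mut-FTO against Vector) were called in all 19. In FTO against Vector 0 members were called lower, against 2 without Vector replicate 3 and mut-FTO replicate 2 together, and 0 in each leave-one-out fit. In mut-FTO against Vector 3 were called lower, against 5 by DESeq2, 2 in a fit of the 6 libraries compared and 3 to 4 with 1 library left out, and 0 higher, against 1 without the same pair of libraries and 0 to 1 with 1 left out (1 without Vector replicate 3). In FTO against mut-FTO 3 were called higher, against 1 to 3 with 1 library left out, and 0 lower, against 2 in a fit of the 6 libraries compared, 2 without that pair, and 0 to 2 with 1 left out (2 without Vector replicate 3).

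The replicate numbers did not pair the libraries: deviations from the group means correlated over 0.1 in 1 of 9 pairs with the same number and in 3 of 18 with different numbers. With the number as a replicate block, 1 member in place of 3 was called higher in FTO against mut-FTO (HBEGF adjusted p = 0.0742, TGFA 0.0893, edgeR).

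Over all genes, calls in FTO against Vector were 42 higher and 60 lower, 127 and 237 by DESeq2, 18 and 23 in the fit of 6 libraries, 467 and 583 without the pair, and 17 to 161 and 10 to 315 with 1 library left out. The block gave 35 lower. In mut-FTO against Vector they were 449 and 618, 708 and 972 by DESeq2, 245 and 376 in the fit of 6, 1064 and 1337 without the pair, and 246 to 916 and 362 to 1173 with 1 left out. In FTO against mut-FTO they were 164 and 155, 370 and 381 by DESeq2, 568 and 650 in the fit of 6, 644 and 552 without the pair, and 46 to 642 and 24 to 785 with 1 left out. Among the fits with 1 library left out, the lowest counts came without an FTO or mut-FTO library and the highest without Vector replicate 3. The cause was not tested. BTC, EPGN and EREG rest on 8 to 138 counts per library.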
